A study of Mus musculus with 6 samples.

Results

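Cadherins, claudins and other tight junction proteins, connexins, desmosomal proteins and simple keratins hold epithelial cells to each other, seal the space between them and anchor their cytoskeleton. The 39 genes described here were listed by name from these families, and all 39 were found among the 22180 genes measured. Their values come from liver RNA of male C57BL/6J mice, 1 Affymetrix whole-transcript array per mouse. The HKO group (3 mice, genotype SlugHKO) carried floxed Slug alleles and the driver albumin-CreERT2, in which the hepatocyte promoter of albumin directs a Cre that acts once tamoxifen is given. The Con group (3 mice, genotype Slug f/f) had floxed Slug alleles and came from the same crosses, as littermates of HKO mice. From 8 weeks of age both groups ate a diet rich in fat (60% of calories) for 11 weeks. The sources used here do not say whether Con mice had the Cre too or when tamoxifen was given. The albumin driver is not aimed at other liver cells of HKO mice, and Slug was not measured by cell type.

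Slug (symbol Snai2) is a zinc finger repressor of the Snail family. It binds E-boxes, short DNA elements, and is known from epithelial cell lines to repress E-cadherin and other junction genes when cells lose epithelial traits. In liver, hepatocytes join through E-cadherin and N-cadherin, close the bile canaliculi with tight junctions, couple through connexins and carry a keratin network made of Krt8 and Krt18, while bile duct cells (cholangiocytes) carry Krt7 and Krt19 in addition. The comparison of HKO with Con asks how these transcripts stand in the liver when Slug is targeted in hepatocytes and mice eat a high fat diet.

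Array values are on a log2 scale, so a difference of 1 is a doubling, and each difference below is the HKO mean minus the Con mean. Arrays were alike, with correlations over all genes of 0.989 to 0.992 within groups and 0.986 to 0.988 across groups. Snai2 itself stood at 4.62, 5.23 and 5.69 in HKO, against 7.74, 7.69 and 7.39 in Con, and the difference was -2.43 ± 0.25 (SE; limma adjusted p = 0.0145; exact two-sided permutation p = 0.1, the smallest that 3 against 3 arrays allow). Leaving out HKO replicate 2 gave a limma adjusted p of 0.0621, Con replicate 1 gave 0.0758 and Con replicate 2 gave 0.0927. With each gene's own variance it was 0.234. The difference ran from -2.69 to -2.15 over the 6 fits with 1 array left out. The 11 measured hepatocyte markers all lay above 3.94, the median over genes of the mean over 6 arrays. Of the members, 9 lay below that median, where a signal over background is not shown: Cldn4, Cldn5, Cldn7, Cldn14, Marveld3, Jam3, Krt7, Krt19 and Esrp1.

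No junction or keratin gene differed between HKO and Con past the threshold, and the differences were small. The highest mean difference was that of E-cadherin, Cdh1 (0.70, or 1.62-fold), and the lowest was that of the keratin Krt23 (-0.56). The hepatocyte keratin Krt8 had the lowest p (-0.49, limma adjusted p = 0.115). Over all 39 members the median difference was -0.02, beside -0.01 over all genes tested, with 17 means higher and 22 lower in HKO, and it changed sign when single arrays were left out, reaching 0.05 without HKO replicate 2. At limma adjusted p 0.05, 0 of 39 members were higher and 0 lower in HKO. Over all genes 0.0902% were called higher and 0.113% lower. The 95% intervals of 3 members, Cdh1 (0.16 to 1.23), Ocln (-0.06 to 1.01) and Krt23 (-1.26 to 0.14), reached beyond 1 log2 unit from 0, and those of the other members did not.

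At an unadjusted limma p under 0.05, 5 members were higher in HKO (Cdh1, Cldn3, Cldn12, Marveld2 and Gjb2), or 12.8% of the members, where 5.31% of all genes were. By the same measure 2 members were lower (Krt8 and Jam2), or 5.13%, where 6.56% of all genes were. All 7 are among the 30 members above the median level, where 16.7% of members were higher and 6.67% lower. Of all genes above that level 5.83% were higher and 9.6% lower. The 3 HKO arrays lay above all 3 Con arrays for 5 members (12.8%, against 8.05% of all genes) and below them for 4 members (10.3%, against 10.1%), which makes 9 members without overlap (23.1%, against 18.2%). All 9 are above the median level, a share of 30% of the members there (16.7% with HKO above and 13.3% with HKO below). Of all genes there, 24.6% had groups that did not overlap (9.32% with HKO above and 15.3% with HKO below). By junction type, the median difference was 0.17 for 3 gap junction genes, 0.17 for 5 desmosome genes and 0.03 for 8 claudins. It was -0.03 for 10 other tight junction genes, -0.04 for 5 adherens junction genes and -0.30 for 5 simple keratins. With so few genes a median can be the value of 1 gene. The gap junction median is that of Gjb1, whose groups overlapped. The keratin median is that of Krt7, which lay below the median level and whose groups overlapped.

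**Figure D1:**
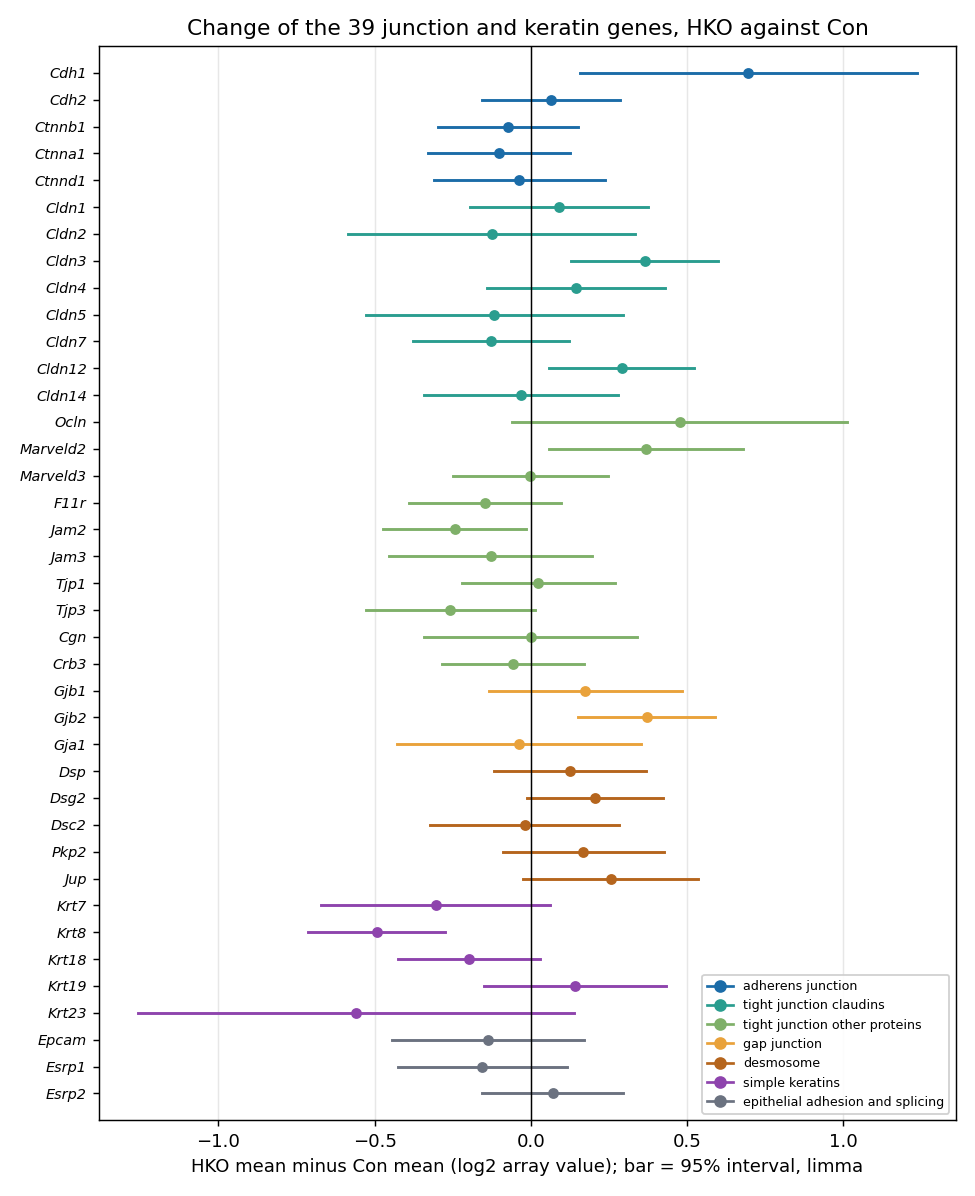
Difference between HKO and Con for each of the 39 genes, coloured by junction type. The horizontal axis is the HKO mean minus the Con mean in log2 array values, points are differences and bars are limma's 95% intervals (3 arrays per group). The intervals of Cdh1, Cldn3, Cldn12, Marveld2 and Gjb2 lie above 0 and those of Krt8 and Jam2 below it, before any adjustment for the number of genes.

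Promoter sequences were read for the E-box letters CAGGTG, which Slug is known to bind and which read CACCTG on the other strand. RefSeq promoter windows of 300 bases (250 before to 50 after a transcript start, build GRCm38.p6) were held for 27 of the 39 members, and the letters stood in at least 1 window of 17 of these 27 genes (63.0%). No window was held for 12 members, so their promoters, that of E-cadherin included, were not read. These were Cdh1, Cdh2, Ctnna1, Jam2, Jam3, Marveld3, Dsg2, Dsc2, Pkp2, Krt19, Esrp1 and Esrp2. The share was 39.1% over the other junction and keratin genes with a window, 23.4% over protein-coding genes with windows of like GC content, 22.1% over protein-coding genes and 22.6% over all genes with a window. Counted by window, 21 of 41 member windows held the letters (51.2%), against 32.1% of windows of the other junction and keratin genes and 20.2% of all windows. No test was made of these shares. The 17 members with the letters had a median difference between HKO and Con of -0.06 (7 higher, 10 lower), and the 10 without had -0.02 (4 higher, 6 lower). A match of letters is a description and not a binding site. The 250 bases before the start are shown for the connexin Gjb2 and for the keratins Krt8, Krt18 and Krt23, which carry a match there and were chosen after their values were seen, as members with a higher HKO mean (Gjb2) or a lower one (the keratins) that did not pass the test. Gjb2 is read from chr14:57104703-57104952 on the minus strand, Krt8 from chr15:102004343-102004592 on the minus strand, Krt18 from chr15:102027966-102028215 on the plus strand and Krt23 from chr11:99493121-99493370 on the minus strand, each written 5′ to 3′ with CAGGTG or CACCTG in capitals.
Gjb2: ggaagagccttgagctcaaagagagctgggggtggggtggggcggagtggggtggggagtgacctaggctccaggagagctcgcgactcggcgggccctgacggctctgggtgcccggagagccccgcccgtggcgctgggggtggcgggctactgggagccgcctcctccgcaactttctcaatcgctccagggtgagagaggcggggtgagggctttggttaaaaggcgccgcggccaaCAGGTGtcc
Krt8: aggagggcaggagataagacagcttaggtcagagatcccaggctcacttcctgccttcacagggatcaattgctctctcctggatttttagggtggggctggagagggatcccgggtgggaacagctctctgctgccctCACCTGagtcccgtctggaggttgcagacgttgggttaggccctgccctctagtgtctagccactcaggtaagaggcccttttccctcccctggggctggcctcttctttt
Krt18: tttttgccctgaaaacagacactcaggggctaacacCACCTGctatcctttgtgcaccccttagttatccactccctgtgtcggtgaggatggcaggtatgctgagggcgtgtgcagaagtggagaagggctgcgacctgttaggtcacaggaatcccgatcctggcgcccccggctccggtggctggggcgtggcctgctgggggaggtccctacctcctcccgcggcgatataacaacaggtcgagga
Krt23: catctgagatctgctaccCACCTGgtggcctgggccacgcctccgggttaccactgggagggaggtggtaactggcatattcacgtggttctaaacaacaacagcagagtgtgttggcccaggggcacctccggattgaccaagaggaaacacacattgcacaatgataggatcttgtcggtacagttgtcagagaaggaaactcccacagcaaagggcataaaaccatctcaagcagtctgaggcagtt
The matches begin at -9 (Gjb2), -111 (Krt8), -214 (Krt18) and -232 (Krt23), where -1 is the base before the start.

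Adherens junction genes had 1 member that stood apart from the others. E-cadherin, encoded by Cdh1, is the cadherin of epithelial cells, found on periportal hepatocytes and bile ducts. Cdh1 stood at 6.61, 6.65 and 5.90 in HKO, against 5.34, 5.76 and 5.98 in Con. HKO replicates 1 and 2 lay above every Con array, and HKO replicate 3 lay between Con replicates 2 and 3, so the groups overlapped. The difference was 0.70 ± 0.23 (SE; limma adjusted p = 0.311), and leaving out 1 array gave 0.52 (without Con replicate 1) to 0.94 (without HKO replicate 3), none of which passed. A second, dim Cdh1 probe set, with a mean level of 2.46, stood at 0.10. N-cadherin, Cdh2, the other cadherin of hepatocytes, was at 9.17 ± 0.07 in HKO and 9.11 ± 0.04 in Con (SD, n = 3 each), and its difference of 0.06 had a 95% interval of -0.16 to 0.28. Its second probe set gave 0.02. The catenins couple cadherins to actin: Ctnnb1 (beta-catenin, also a Wnt effector) stood at -0.07, Ctnna1 (alpha-catenin, the actin linker) at -0.10 and Ctnnd1 (p120 catenin, which stabilises cadherin at the membrane) at -0.04. The arrays of HKO and Con overlapped for each of these 3 genes, and their intervals stayed between -0.33 and 0.24.

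The claudins, the membrane proteins that form tight junction strands, were measured with 8 members, of which Cldn3 and Cldn12 had groups that did not overlap. Cldn3, a sealing claudin of hepatocytes, stood at 8.34, 8.33 and 8.43 in HKO, against 7.97, 7.92 and 8.12 in Con. Its difference was 0.36 ± 0.10 (limma adjusted p = 0.245). Cldn12 stood at 6.92, 6.99 and 7.04 in HKO, against 6.66, 6.63 and 6.79 in Con, a difference of 0.29 ± 0.10 (limma adjusted p = 0.328). In both genes all 3 HKO arrays were above all 3 Con arrays. Cldn1, another sealing claudin, was at 0.09 with a 95% interval of -0.20 to 0.37. Cldn2, which forms cation channels, stood at 4.42, 4.87 and 4.72 in HKO, against 4.96, 4.36 and 5.06 in Con, and the groups overlapped (-0.13, interval -0.58 to 0.33). Cldn4, the direct neighbour of Cldn3 among protein-coding genes on chromosome 5, Cldn5, Cldn7 and Cldn14 were dim, with differences from -0.13 to 0.14.

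Among the other tight junction proteins, the neighbouring genes Ocln and Marveld2 had higher HKO means and Jam2 and Tjp3 lower ones. Occludin (Ocln) and tricellulin (Marveld2, found where 3 cells meet) are membrane proteins of one family whose genes lie next to each other on chromosome 13. Ocln stood at 6.86, 6.24 and 6.10 in HKO, against 5.61, 5.86 and 6.30 in Con. HKO replicate 1 was above every other array, and Con replicate 3 was above HKO replicates 2 and 3. The difference of 0.48 ± 0.23 (limma adjusted p = 0.478) was 0.25 without HKO replicate 1. Marveld2 stood at 5.62, 5.78 and 5.44 in HKO, against 5.14, 5.14 and 5.45 in Con, a difference of 0.37 ± 0.14 (limma adjusted p = 0.352). Con replicate 3 was the highest Con array in both genes and overlapped with HKO. Marveld3, the third member of that family, was dim and stood at -0.0024.

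Jam2, a junctional adhesion molecule best known from endothelium, stood at 6.76, 6.87 and 6.91 in HKO, against 7.05, 7.17 and 7.05 in Con, so that all 3 HKO arrays were lower. Its difference was -0.24 ± 0.10 (limma adjusted p = 0.396). Beside it, the 13 endothelial markers had a median difference of -0.15, with 10 lower and 3 higher means, and the sum of their unlogged values was 2164 to 2291 in HKO and 2299 to 2358 in Con. None of the 13 lay below the median level, and their part in the Jam2 value was not tested. In whole liver, fewer cells of a type and less RNA per cell cannot be told apart. Cldn5, the claudin of endothelium, had values of 3.87, 3.13 and 3.42 in HKO that spanned those in Con, 3.49, 3.69 and 3.58. Jam3 was at -0.13 and F11r, the junctional adhesion molecule of epithelia, at -0.15 (interval -0.39 to 0.10).

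None of the cytoplasmic plaque genes of tight junctions passed the test. Tjp3, a zonula occludens scaffold protein, stood at 5.97, 5.89 and 5.66 in HKO, against 6.05, 6.20 and 6.04 in Con, below every Con array, with a difference of -0.26 ± 0.12 (limma adjusted p = 0.443). Tjp1, its better known relative, was at 7.70 ± 0.05 in HKO and 7.67 ± 0.13 in Con (SD, n = 3 each). Its interval ran from -0.22 to 0.27. The linker protein cingulin, Cgn, had equal means of 6.25 in HKO and 6.25 in Con, with HKO replicate 1 at 6.57 above the other 5 arrays. Crb3, a polarity protein of the apical membrane, was at -0.06.

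Gap junction genes were led by Gjb2, one of the main connexins of hepatocytes. Its values were 9.68, 9.55 and 9.67 in HKO, against 9.28, 9.23 and 9.27 in Con, and the lowest HKO array was above the highest Con array. The difference of 0.37 ± 0.10 (1.29-fold) had a limma adjusted p of 0.214, and it passed only when the variance was modelled as a trend of the level (adjusted p = 0.0283). Gjb1, the other main hepatocyte connexin, stood at 7.78, 7.98 and 7.55 in HKO, against 7.49, 7.57 and 7.73 in Con. These groups overlapped, with HKO replicate 3 below Con replicate 3, and the difference was 0.17 ± 0.13 (limma adjusted p = 0.667). Gja1, a connexin of stellate and other non-hepatocyte cells, had values of 5.16, 4.64 and 5.13 in HKO and of 5.15, 5.12 and 4.77 in Con, a difference of -0.04. The 12 stellate cell and fibroblast markers had a median difference of -0.26 beside it, with summed unlogged values of 1373 to 1540 in HKO and 1809 to 1923 in Con. The list was uneven, with 10 means lower and 2 higher. Differences ran from -1.32 (Col1a1) to 0.05 (Des), and the stellate cell markers Lrat (0.03) and Reln (-0.005) stood near 0. The part of these markers in the Gja1 value was not tested.

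Desmosome genes, which anchor keratin filaments at the cell border, had higher HKO means for 4 of 5 members. Of 16 other desmosome and hemidesmosome genes, 12 means were lower and 4 higher, and 10 of these genes lay below the median level. The cadherin Dsg2 stood at 8.08, 8.06 and 8.02 in HKO, against 7.78, 7.85 and 7.90 in Con, with every HKO array above every Con array. Its difference was 0.20 ± 0.09 (limma adjusted p = 0.452), and a second, dim Dsg2 probe set with a mean level of 3.61 stood at 0.03. Plakoglobin, Jup, which sits in desmosomes and adherens junctions, stood at 6.83, 6.82 and 6.99 in HKO, against 6.45, 6.80 and 6.62 in Con. The groups did not overlap but came close, with HKO replicate 2 next to Con replicate 2, and the difference was 0.26 ± 0.12 (limma adjusted p = 0.465). Pkp2, a plaque protein, was at 0.17 and desmoplakin, Dsp, the link to keratin filaments, at 0.12. The second desmosomal cadherin, Dsc2, was at -0.02, with a 95% interval of -0.32 to 0.28. The hepatocyte markers had a median difference of 0.09 (8 of 11 means higher), and the sum of their unlogged values was 27780 to 29570 in HKO and 27090 to 28220 in Con. Their part in the junction values was not tested.

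**Figure D2:**
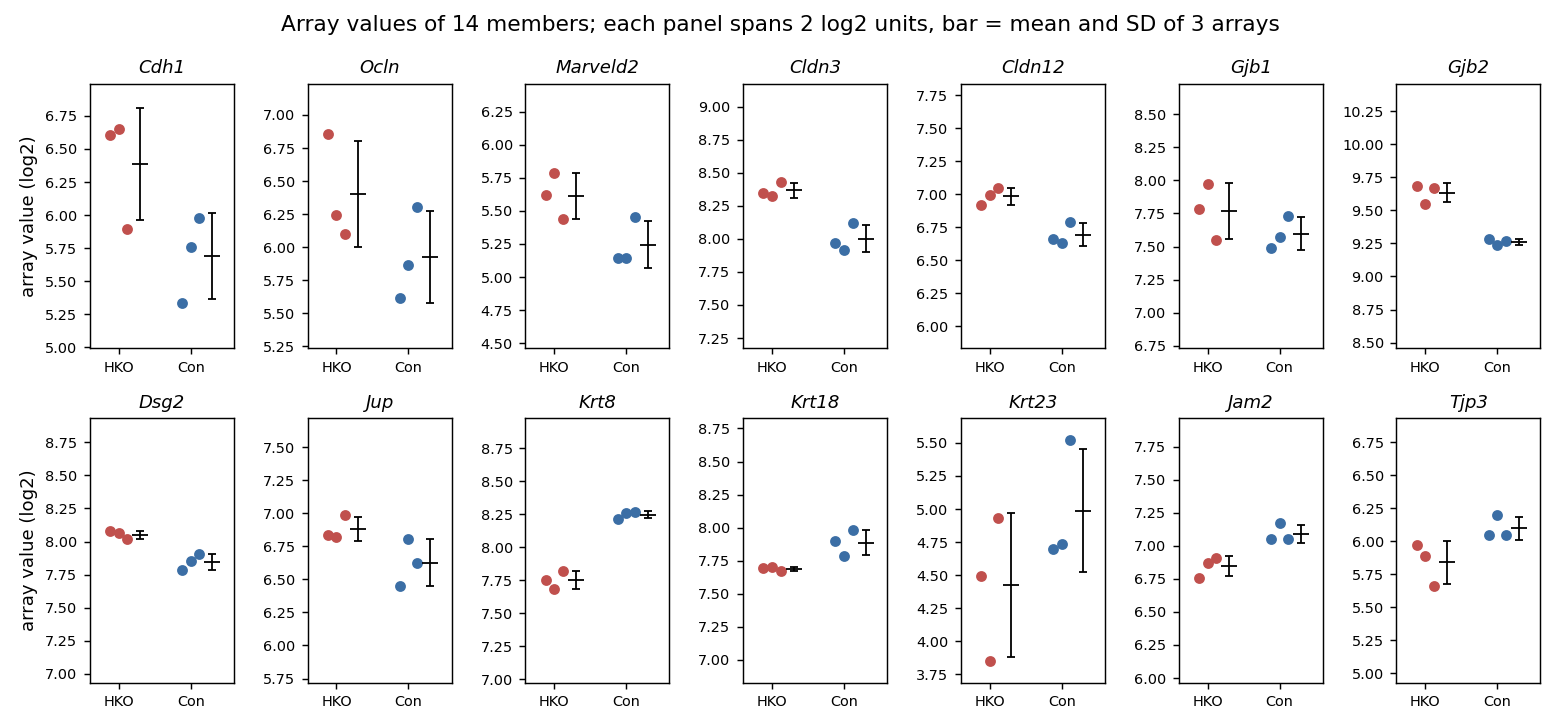
Array values of 14 members in HKO (left, red) and Con (right, blue), with a black bar for the mean and SD of 3 arrays. The vertical axis is the log2 array value, and each panel spans 2 log2 units. HKO and Con do not overlap for Cldn3, Cldn12, Gjb2, Dsg2, Jup, Krt8, Krt18, Jam2 and Tjp3, and they overlap for Cdh1, Ocln, Marveld2, Gjb1 and Krt23.

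Simple keratins, the intermediate filaments of single-layered epithelia, had lower HKO means for 4 of 5 members. Of 19 other keratins, 14 means were higher and 5 lower, and 18 of these genes lay below the median level. Krt8 and Krt18 form the obligate filament pair of hepatocytes, and their genes lie next to each other on chromosome 15. Krt8 stood at 7.75, 7.68 and 7.82 in HKO, against 8.22, 8.26 and 8.26 in Con. The lowest Con array lay above the highest HKO array by more than the whole range within either group. The difference was -0.49 ± 0.10 (1.41-fold lower, limma adjusted p = 0.115), and without 1 array it was -0.53 to -0.46. It passed when genes below the median level were left out (adjusted p = 0.042) and with a variance trend (adjusted p = 0.0127). Krt18 stood at 7.69, 7.70 and 7.67 in HKO, against 7.90, 7.79 and 7.98 in Con. All 3 HKO arrays were again lower, with a difference of -0.20 ± 0.10 (limma adjusted p = 0.490), and its second, dim probe set stood at -0.19.

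Krt23, an inducible keratin that hepatocytes carry at low levels in health, had the widest spread of the members. It stood at 4.50, 3.85 and 4.93 in HKO, against 4.70, 4.73 and 5.52 in Con. HKO replicate 2 was the lowest array and Con replicate 3 the highest, while HKO replicate 3 lay above Con replicates 1 and 2. The difference of -0.56 ± 0.30 (limma adjusted p = 0.527) was smallest when HKO replicate 2 was left out (-0.27) or Con replicate 3 (-0.29), and it was -0.81 when HKO replicate 3 was. The keratins of bile duct cells were dim: Krt7 stood at 3.13, 3.29 and 3.41 in HKO, against 3.25, 3.82 and 3.67 in Con, and Krt19 at 3.37, 3.57 and 3.26 in HKO, against 3.38, 3.09 and 3.31 in Con. Both overlapped between groups, with differences of -0.30 and 0.14. The 8 measured cholangiocyte markers outside the member list had a median difference of -0.09, with 6 lower and 2 higher means. These 8 markers ran from -0.49 (Pkhd1) to 0.09 (Sctr), and none passed the threshold. Their summed unlogged values, 166.9 to 225.2 in HKO and 194.6 to 221.5 in Con, overlapped, and Cftr, Sctr and Prom1 lay below the median level.

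Epcam, an adhesion molecule of bile duct and progenitor cells, stood at 3.92, 3.87 and 4.14 in HKO, against 4.22, 4.24 and 3.89 in Con, a difference of -0.14. The epithelial splicing regulators, which set epithelial exon patterns, were at -0.15 for the dim Esrp1 and at 0.07 for Esrp2, with an interval of -0.16 to 0.30 for Esrp2. HKO and Con arrays overlapped for all 3 genes.

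**Figure D3:**
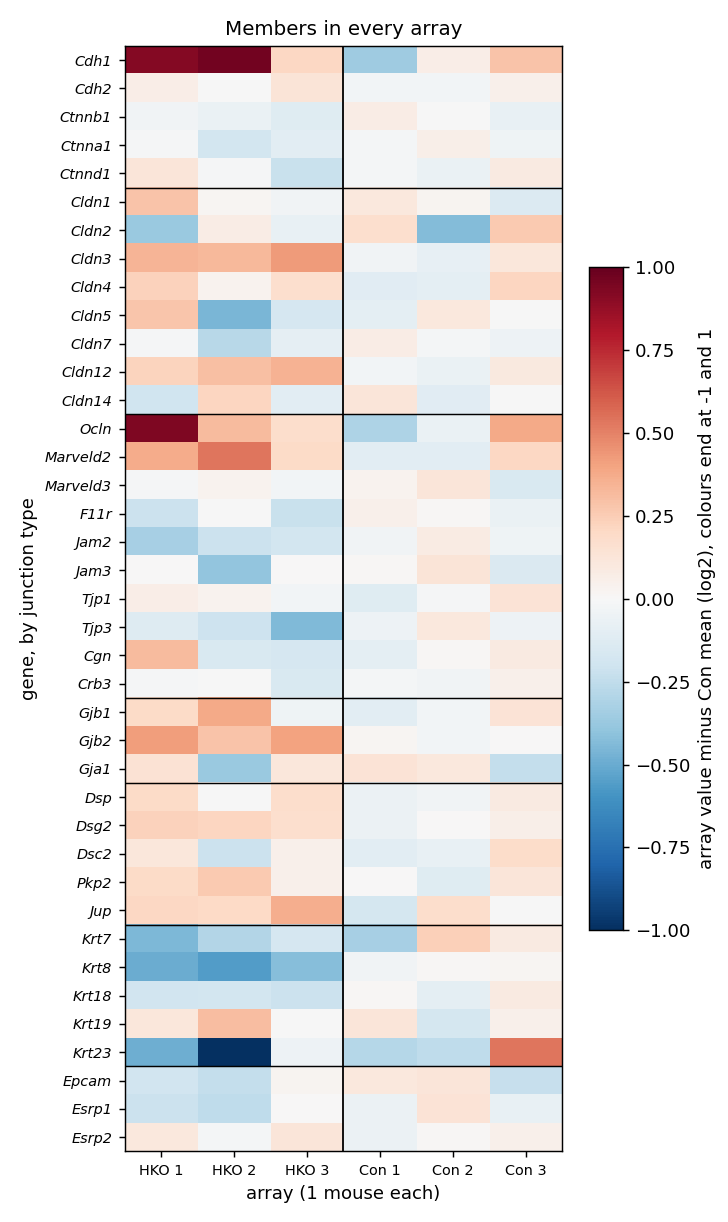
Each of the 39 genes in each of the 6 arrays, as the array value minus the Con mean of that gene (log2, red above and blue below, colours end at -1 and 1). HKO arrays are the left 3 columns, and black lines part the junction types from adherens junction (top) to Epcam and the splicing regulators (bottom). Krt8 is below the Con mean in all 3 HKO arrays, while Cdh1 and Ocln are not equally high across them.

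Other genes of the same families were taken from lists of 116 genes, of which 108 were measured. Over these, 0 were higher and 0 lower at limma adjusted p 0.05, and at an unadjusted p under 0.05 there were 2 higher and 9 lower, where 5.31% of all genes were higher and 6.56% lower. Their median difference was -0.02. By list, the median was -0.10 for desmosome and hemidesmosome genes, 0.04 for keratins and -0.02 for connexins and pannexins. It was -0.03 for adherens junction and nectin genes, 0.04 for tight junction and polarity genes and -0.02 for claudins. The sign was that of the member list for adherens junction and nectin genes and differed for the others. Most of these medians are near 0, and 65 of the 108 genes lay below the median level, so they settle no direction. Of the 2 genes of lowest p in each list, the keratin Krt78 (0.42) and the connexin Gjd3 (0.40) had the highest differences, and the keratin Krt20 (-0.45) and the desmosomal cadherin Dsg1b (-0.47) the lowest. Krt78, Krt20 and Dsg1b lay below the median level over genes. Gjd3 stood at 4.92, 4.75 and 4.56 in HKO, against 4.23, 4.46 and 4.34 in Con (limma adjusted p = 0.283). Itga6, an integrin of hemidesmosomes that is also found on endothelium, was at -0.44, and VE-cadherin, Cdh5, the cadherin of endothelium, at -0.30 (adjusted p = 0.337), with HKO arrays below all Con arrays in both.

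**Figure D4:**
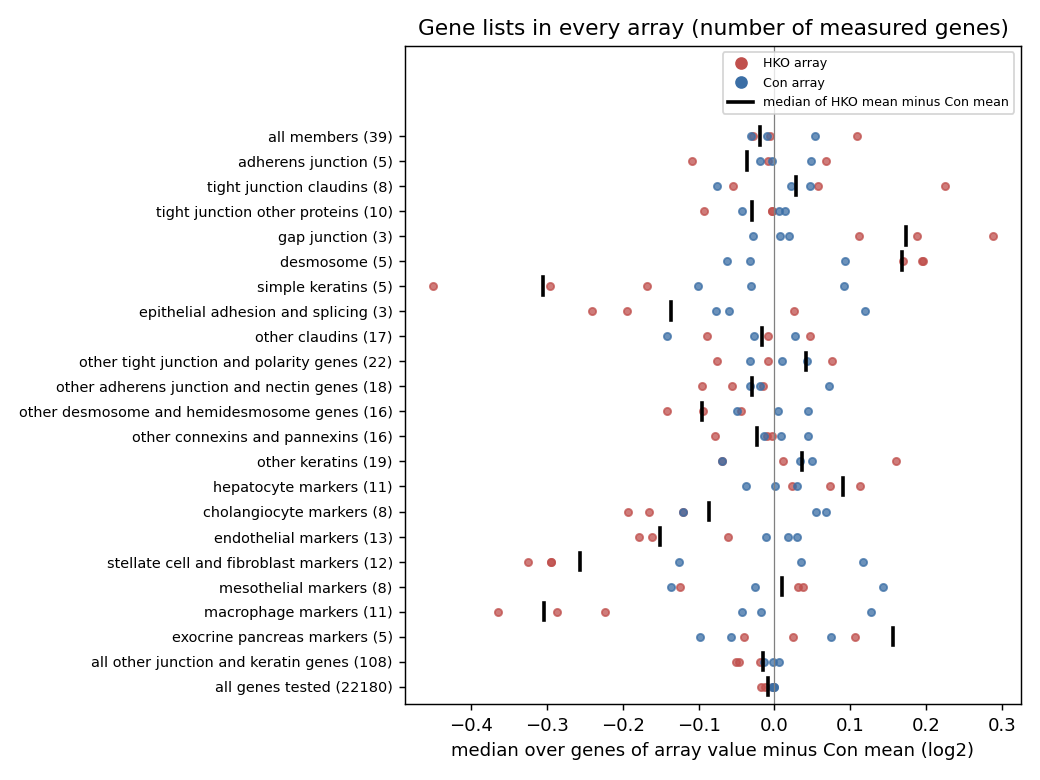
Median over the genes of a list of the array value minus the Con mean (log2), for each HKO array (red) and Con array (blue), with the number of measured genes in brackets and a black bar for the median of the HKO mean minus the Con mean. Gap junction and desmosome arrays of HKO lie to the right of those of Con and simple keratin arrays to the left, while the median over all 39 members lies at -0.02. The lists of other genes have medians from -0.10 (desmosome and hemidesmosome genes) to 0.04 (tight junction and polarity genes, and keratins), with -0.02 for connexins and pannexins. The lists of endothelial, stellate cell and fibroblast, and macrophage markers lie to the left in HKO, with medians of -0.15, -0.26 and -0.30. The macrophage list was uneven, from -1.18 (Gpnmb) to 0.20 (Clec4f), with 9 means lower and 2 higher.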

How the data were processed

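Values deposited by the authors are log2 levels of each probe set on each array, and the submitters' processing notes name RMA and R 3.3.0. RMA equalises the arrays' distributions, so a difference is relative to the whole array, and it compresses differences of dim genes. The labels' protocols give 400 ng of liver RNA as the input. The deposited log2 values ran from 0.56 to 12.56. Arrays have no read depth, and their number limits the precision. The labels call Con mice littermates of HKO mice but do not say which of the 6 mice shared a litter.

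Of 41345 probe sets, 23521 carried 1 gene symbol in the platform annotation, 1814 several and 16010 none. Matching by Entrez identifier to RefSeq (assembly GRCm38.p6) found 23328 and changed 0 symbols. Where a gene had several probe sets, the one of highest mean over the 6 arrays stood for it, with no filter on low values, which left 22180 genes. HKO was compared with Con by limma 3.58.1 in R 4.3.3 (lmFit, eBayes, group as the only term, two-sided, Benjamini-Hochberg over all genes, threshold 0.05). Steps were tested on simulated data. The share of small changes that the test recovers with 3 arrays per group is not given, so a member that did not pass may still differ. Promoter sequences are RefSeq's. Figures were drawn with matplotlib 3.10.9. The members and lists were chosen with earlier results of these data known. Array values are given in full for members whose groups do not overlap, the 3 largest differences, and Cdh1, Ocln, Krt8, Krt18, Gjb1 and Gjb2 in any case. Array values of other members were added after they were seen. Of the other family lists, the 2 genes of lowest p per list were eligible to be named. Alternatives were a second quantile normalization, centring, 2 level filters, other probe set choices, other variance models, a replicate block, and leaving out each array.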

Additional observations from a re-analysis of the deposited data

How the results depend on the processing

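Over all genes 45 passed as reported, 215 with a variance trend, 138 when genes below the median level were left out, 0 when each gene's own variance was used, and 4 to 32 without 1 array. Of the 39 members, 0 passed as reported, at adjusted p 0.1, with the replicate block and without any 1 array. When genes below the median level were left out, 1 of the 30 remaining members passed (Krt8, lower), with a variance trend 2 passed (Gjb2 higher, Krt8 lower), and 7 passed at an unadjusted p under 0.05. The median difference of the members ran from -0.0366 (without Con replicate 1) to 0.0545 (without HKO replicate 2). It was also above 0 without HKO replicate 3, Con replicate 2 or Con replicate 3 and with genes above the median level, so its sign is not settled. Of the members, 13 were followed through 17 alternative fits (Cdh1, Cldn3, Cldn12, Ocln, Jam2, Tjp3, Gjb1, Gjb2, Dsg2, Jup, Krt8, Krt18 and Krt23), and these kept their direction in each. That outcome was largely fixed in advance, because they were picked for groups without overlap, for a large difference or by name. The level filters, the replicate block and most variance models leave the difference itself as it was. Where groups do not overlap, leaving out 1 array cannot reverse it. Snai2 was at -2.43 when each gene's own variance was used (adjusted p = 0.234) and at -2.43 with the replicate block (adjusted p = 0.0540), and missed the threshold in both. Without 1 array it ran from -2.69 to -2.15, and it missed the threshold without HKO replicate 2 (0.0621), Con replicate 1 (0.0758) or Con replicate 2 (0.0927). Averaging both probe sets gave 0.40 for Cdh1 and 0.12 for Dsg2, and the probe set of largest variance gave 0.03 for Dsg2. Deviations of same-numbered HKO and Con arrays correlated at 0.0323, 0.016 and 0.0214 over genes. These values are low, although each array correlated best with its own number. Whether same numbers mark paired mice was not tested. The replicate block lowered the calls over all genes to 3, against 45 without it, and changed no call among the members. The cause of these shifts was not tested.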

Other observations

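A probe set that the platform annotation assigns to both Esrp2 and 1810019D21Rik stayed out of the comparison. It stood at 7.34, 6.92 and 7.42 in HKO, against 6.63, 6.70 and 6.95 in Con, a difference of 0.47, while the probe set of Esrp2 alone was at 0.07. Which of these genes gives that signal was not tested.

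Among the 39 members, 3 pairs lie next to each other with no protein-coding gene between them, by RefSeq order. The members of each pair had differences of one sign: 0.48 for Ocln and 0.37 for Marveld2, -0.49 for Krt8 and -0.20 for Krt18, and 0.36 for Cldn3 and 0.14 for Cldn4. Cldn4 lay below the median level. Cdh2 (0.06) and Dsc2 (-0.02), with 1 protein-coding gene between them, had differences of opposite sign. The pairs were picked out after their values were seen.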
